A study of Mus musculus with 4 samples.

Results

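Genes of serine synthesis, of the folate and methionine cycles, of amino acid synthesis and transport, and of the transcription factor ATF4 were followed in 4 cancer cell lines from mouse pancreatic tumors. The 36 genes were chosen by name for these roles, with earlier results of these data known. Shares of these genes set beside those of all genes are therefore descriptions and not tests. Of the 36 genes, 33 were measured among the 19938 genes compared. Ahcy was represented only on probe sets that carry several gene symbols, and no probe set was named for Mat2a or Pycr1, so these 3 genes were not analysed here. When a gene had several probe sets with its symbol alone, the brightest over the 4 arrays was used. This was the case for Glul and Slc38a1.

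Lines K459 and TCPA18654 came from TPAC mice, and lines TPC18645 and TPC20223 came from TPC mice. Both genotypes carry a TGF-α transgene under the elastase promoter of acinar cells (Ela-TGFa), Cre in the pancreas (written Ptg1a+/CRE in the labels and p48-Cre in the study) and floxed p53 (Trp53fl/fl). TPAC mice carry the floxed p65 allele (p65fl/fl) in addition, which removes RelA, a subunit of NF-κB. The cells were grown from dissociated tumors in serum-containing medium without further treatment, and the total RNA of each line was measured on 1 Affymetrix Mouse Gene 1.0 ST array. The ages of the mice, and whether the lines of 1 genotype came from separate mice, are not given in the sources used here. All errors below therefore come from the spread between lines. The SDs are that spread for the gene itself, and the standard errors of limma also draw on the spread of all genes. All values are log2 signals normalized by RMA. A difference of 1 is a 2-fold difference in signal, signals of different genes cannot be set against each other, and RMA hides any difference between lines in the amount of RNA per cell. The comparison of TPAC with TPC cells addresses which pathways differ between the cancer cells of the genotypes.

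Cells make serine from the glycolytic intermediate 3-phosphoglycerate, and convert serine to glycine while handing its side-chain carbon to folate. The folate cycle passes this carbon on to purines, thymidylate and, through methionine synthase, to methionine, and homocysteine can be diverted to cysteine by transsulfuration. When amino acids are short or misfolded proteins accumulate, kinases phosphorylate eIF2α, which lowers general translation but raises that of ATF4. ATF4 binds with C/EBP proteins to composite sites in promoters and turns on genes of amino acid synthesis, transport and tRNA charging. Pancreatic cancer cells are known for a high demand for amino acids in a poorly perfused tissue.

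Because many of these genes are known ATF4 targets, the RefSeq promoter windows of build GRCm38.p6, each covering 250 bases before and 50 bases after a gene's start, were searched on both strands for the C/EBP-ATF composite site, written TGATGNAA. Windows were found for 31 of the 36 genes, and 7 of the 31 held the motif (22.6%), against 4.51% of the 27025 genes with a window. The antioxidant response element, written TGACNNNGC, was in 6 of the 31 genes (19.4%), against 14% of all genes, and the E-box CACGTG was in 3 of the 31 genes (9.68%), against 8.09% of all genes. In none of the 7 genes did the composite site overlap a match of the other motifs. A match is a description of letters and does not show that a factor binds there. The windows of all 6 measured genes with a composite site are shown, whatever their signals. Each is printed in the direction of the gene up to its start, or to the end of the motif where that lies further on, with the motif in capitals (TTGCATCA and TTACATCA are the motif read on the opposite strand). They lie at chr2:119350992-119351241 on the plus strand for Chac1, and on the minus strand at chr2:152344039-152344310 for Trib3, chr6:7693210-7693459 for Asns, chr11:20332710-20332963 for Slc1a4, chr3:50443614-50443863 for Slc7a11 and chr19:43524606-43524855 for Got1.
Chac1: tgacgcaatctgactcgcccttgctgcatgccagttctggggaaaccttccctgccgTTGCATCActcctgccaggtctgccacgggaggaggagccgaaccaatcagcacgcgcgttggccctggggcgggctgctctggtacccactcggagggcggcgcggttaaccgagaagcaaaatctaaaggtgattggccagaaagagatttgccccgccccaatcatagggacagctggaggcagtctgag
Trib3: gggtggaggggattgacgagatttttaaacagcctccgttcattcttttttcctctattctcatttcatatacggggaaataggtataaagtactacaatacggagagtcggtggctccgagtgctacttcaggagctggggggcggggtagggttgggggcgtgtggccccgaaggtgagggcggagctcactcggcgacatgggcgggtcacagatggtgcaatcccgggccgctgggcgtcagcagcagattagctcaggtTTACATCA
Asns: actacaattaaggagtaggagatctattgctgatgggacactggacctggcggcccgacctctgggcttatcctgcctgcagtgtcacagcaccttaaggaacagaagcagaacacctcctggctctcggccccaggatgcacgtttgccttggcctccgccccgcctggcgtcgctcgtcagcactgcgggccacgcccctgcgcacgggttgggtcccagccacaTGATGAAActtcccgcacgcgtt
Slc1a4: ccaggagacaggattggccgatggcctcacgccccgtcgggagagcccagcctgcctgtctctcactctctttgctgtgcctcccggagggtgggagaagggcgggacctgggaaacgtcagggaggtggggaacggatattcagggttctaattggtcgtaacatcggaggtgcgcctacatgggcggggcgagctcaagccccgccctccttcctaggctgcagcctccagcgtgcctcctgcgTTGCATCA
Slc7a11: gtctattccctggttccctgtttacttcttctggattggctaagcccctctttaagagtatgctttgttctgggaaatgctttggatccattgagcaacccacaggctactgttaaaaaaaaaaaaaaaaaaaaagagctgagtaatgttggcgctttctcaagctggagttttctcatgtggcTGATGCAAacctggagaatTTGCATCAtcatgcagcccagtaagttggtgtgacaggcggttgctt
Got1: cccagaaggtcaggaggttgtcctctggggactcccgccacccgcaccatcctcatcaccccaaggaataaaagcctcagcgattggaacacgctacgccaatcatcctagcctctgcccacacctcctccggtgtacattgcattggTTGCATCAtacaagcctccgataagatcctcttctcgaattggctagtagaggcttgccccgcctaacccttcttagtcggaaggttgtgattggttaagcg

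The motif began 193 bases before the start in Chac1, 102 bases before it in Got1, 23 bases before it in Asns and 4 bases before it in Slc1a4, and at base 15 after the start in Trib3. Slc7a11, the cystine transporter gene, held 2 matches, 66 and 47 bases before the start. The start used for Slc7a11 lies inside the gene as RefSeq bounds it, since the outermost RefSeq start is at position 50499087. The seventh gene with a match was Pycr1, which was not measured.

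The 4 lines were not equally far apart. TCPA18654 and TPC18645, which differ in genotype, were the closest pair, with 0.271% of all genes apart by a log2 difference of 1 or more. TPC20223 stood apart. The mean signal over 9 ductal epithelial markers was 11.84 in K459 and 10.69 in TCPA18654, against 10.48 in TPC18645 and 7.25 in TPC20223. The mean over 10 fibroblast markers was 8.25 in K459 and 7.48 in TCPA18654, against 7.64 in TPC18645 and 9.32 in TPC20223. The defining ductal keratin gene Krt19 had a signal of 12.65 in K459, 11.79 in TCPA18654, 11.74 in TPC18645 and 6.08 in TPC20223. Of the 9 ductal markers 8 were lowest in TPC20223. Sox9 was the exception, with 11.56 in K459 and 10.14 in TCPA18654, against 10.21 in TPC18645 and 10.89 in TPC20223. Of the 10 fibroblast markers 7 were highest in TPC20223, but not Dcn, Thy1 and Fap. Dcn had 9.35 there, below TCPA18654 (10.99) and TPC18645 (11.03), and Thy1 was highest in K459 (8.86). Of the immune markers 8 of 9, of the endothelial markers 6 of 8 and of the fibroblast markers 2 of 10 were dim. Dim means among the lowest 40% of genes by mean signal over the 4 lines, a cut at 6.963, and none of the 33 genes was. In TPC20223 alone, however, Gldc (6.86) and Slc7a3 (6.63) were below this cut. Of the dim immune and endothelial markers, Fcer1g (7.98), Cd74 (7.15), Tek (7.15) and Kdr (7.02) were above it in that line and the others below. Mean signals over 9 proliferation genes were 11.19 in K459, 11.03 in TCPA18654, 10.88 in TPC18645 and 11.19 in TPC20223. The part of cell identity in the results below was not tested. Rela had a signal of 10.82 in K459, 11.10 in TCPA18654, 11.12 in TPC18645 and 10.70 in TPC20223, which does not check the genotypes because the deleted exons are not given in the sources used here.

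**Figure D1:**
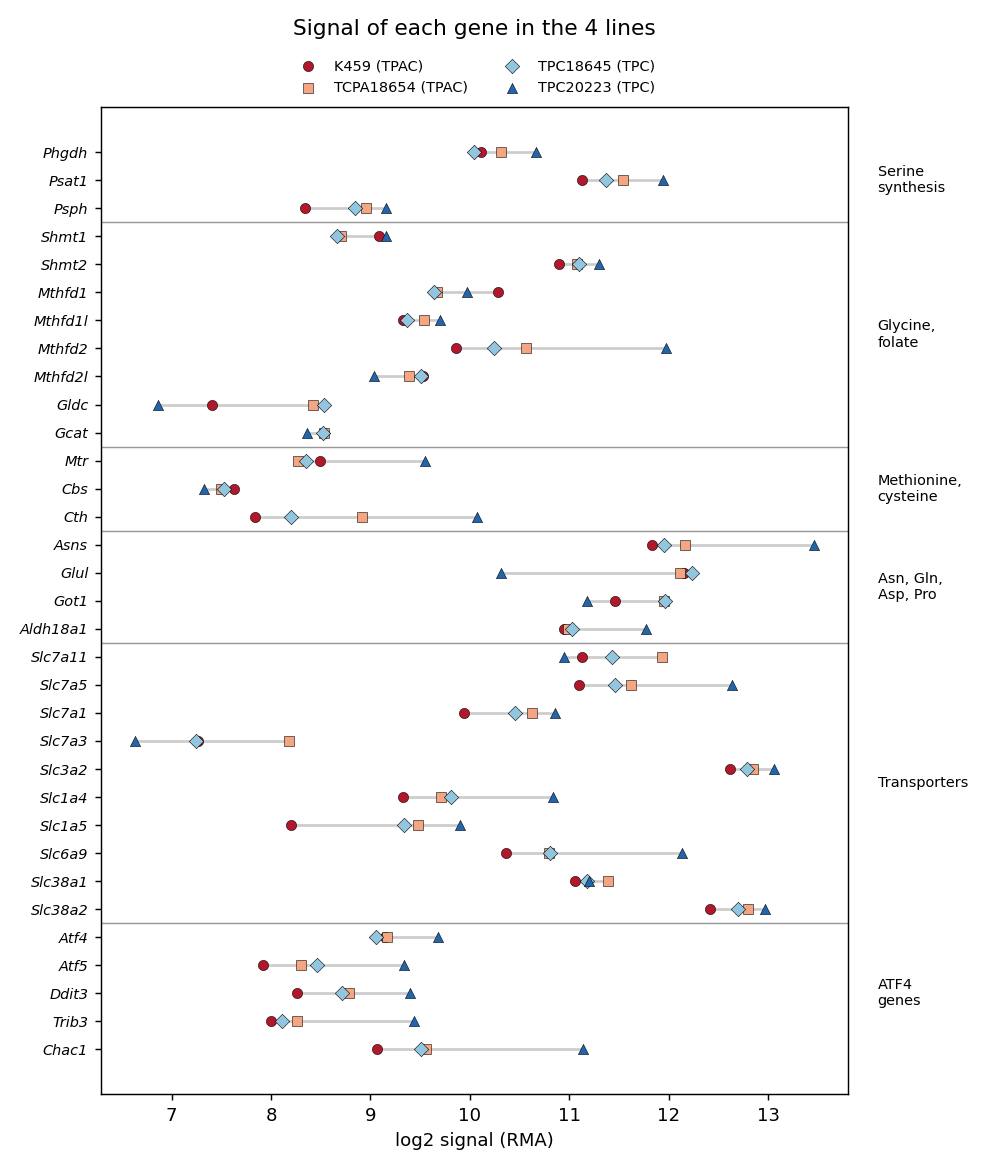
Log2 RMA signal (horizontal axis) of each of the 33 measured genes in the 4 lines, 1 array each, grouped by role. Red and orange points are the TPAC lines K459 and TCPA18654, blue points the TPC lines TPC18645 and TPC20223, and the grey bar spans the lowest to the highest line. TPC20223 (dark triangle) is at the right end in 23 of the 33 genes and K459 (dark circle) at the left end in 20.

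None of the 33 genes differed between the genotypes beyond the spread between lines. Of the 33 genes, 10 had a higher mean and 23 a lower mean in TPAC than in TPC cells (69.7% lower, against 46.7% of all genes), with a median log2 difference of -0.225 for the 33 genes and 0.015 for all genes. With limma, none was called higher (0.0% of all genes) and none was called lower (0.0%) in TPAC cells, where a call needed an adjusted p of at most 0.05 together with a log2 difference of at least 0.58 in size. The smallest adjusted p of limma among the 33 genes was 0.989. At an unadjusted p of 0.05 with the same difference, 0 of the 33 were higher (0.191% of all genes, 38 genes) and 0 were lower (0.231%, 46 genes). With 2 lines against 2, an exact two-sided permutation test of a single gene cannot go below p = 0.333. Both TPAC lines lay above both TPC lines in 2 genes (6.06%, against 13.7% of all genes), by a margin of 0.01 in Gcat and 0.02 in Slc7a3, and in none after the arrays were set to a common median. Both TPAC lines lay below both TPC lines in 5 genes, namely Shmt2, Aldh18a1, Slc1a4, Slc6a9 and Atf5 (15.2%, against 13.3% of all genes), a share close to that of all genes. Without TPC20223 the median of the 33 genes was -0.050, against -0.015 for all genes, and 19 of the 33 were lower (57.6%, against 52.6% of all genes). The median was -0.510 without TPC18645, -0.415 without TCPA18654 and -0.120 without K459.

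**Figure D2:**
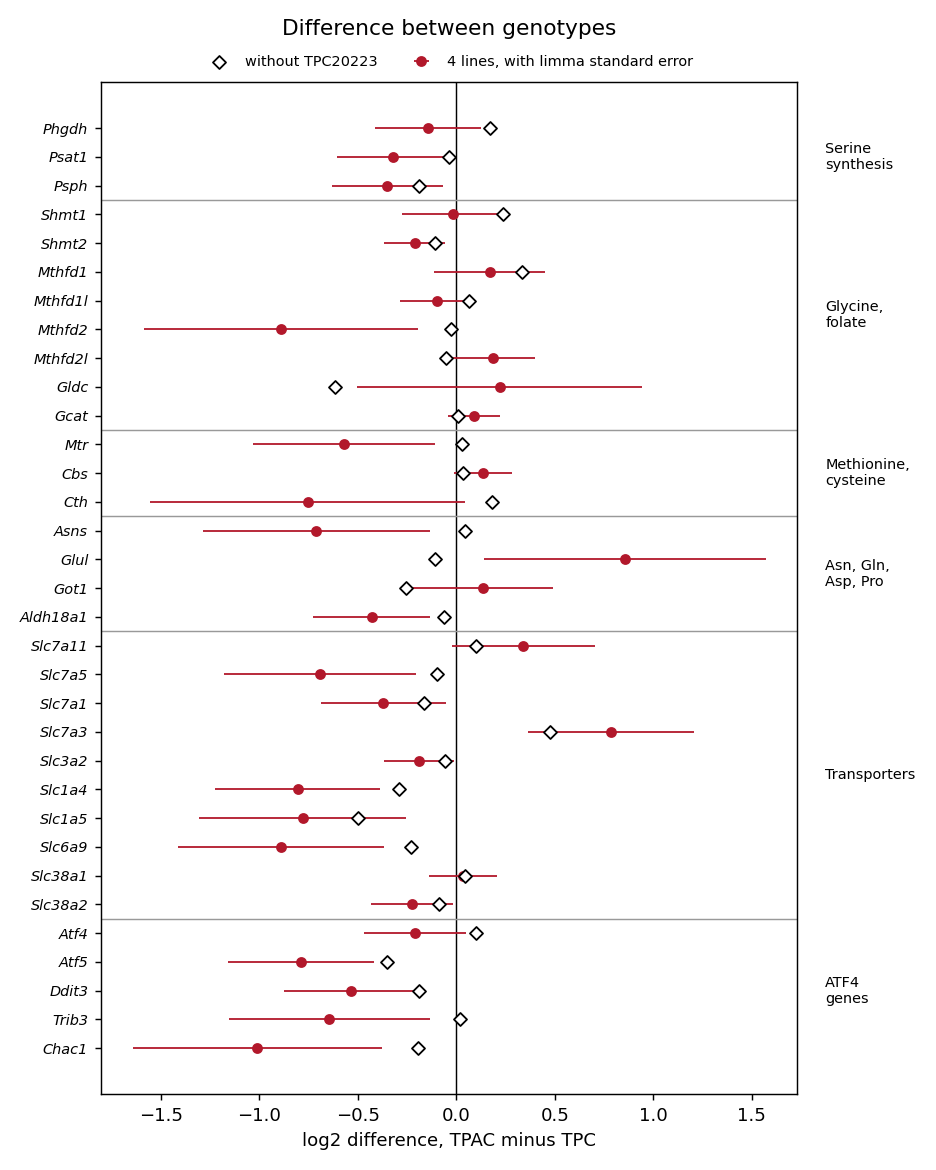
Log2 difference, TPAC minus TPC (horizontal axis), of each of the 33 genes over the 4 lines (filled points, bars are the standard error of limma) and with TPC20223 left out (open diamonds). Chac1 has the widest difference (-1.01 ± 0.63), and 12 genes change sign without TPC20223.

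Set against single lines, the 33 genes separated TPC20223 from the others. K459 and TPC20223 were apart by 1 or more in 13 of the 33 genes (39.4%, against 10.9% of all genes), and TCPA18654 and TPC20223 also in 13 (39.4%, against 10.9%). In these genes TPC20223 was the higher line, except for Glul in both pairs and for Gldc and Slc7a3 in the pair with TCPA18654. K459 and TPC18645 were apart in 2 genes, Gldc and Slc1a5 (6.06%, against 4.34%). TCPA18654 and TPC18645 were apart in none (0.0%, against 0.271%), and the widest gap between them was that of Slc7a3, 0.93. Within the genotypes, TPC20223 and TPC18645 were apart in 11 genes (33.3%, against 11.2%), and K459 and TCPA18654 in 3, which were Gldc, Cth and Slc1a5 (9.09%, against 3.87%). The median log2 difference of the 33 genes was 0.50 for TPC20223 minus TPC18645 and -0.38 for K459 minus TCPA18654, when that of all genes was -0.05 and -0.02.

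TPC20223 was the highest of the 4 lines in 23 of the 33 genes (69.7%, against 28.1% of all genes) and the lowest in 8 (24.2%, against 38.8%). It exceeded every other line by 1 or more in 9 genes (27.3%, against 4.24%; 7 genes with the arrays at a common median), namely Mthfd2, Mtr, Cth, Asns, Slc7a5, Slc1a4, Slc6a9, Trib3 and Chac1, and lay below every other line by 1 or more in 1 gene, Glul (3.03%, against 2.95%). K459 was the lowest line in 20 genes (60.6%, against 24.2%) and the highest in 3, Mthfd1, Mthfd2l and Cbs (9.09%, against 22.6%). Slc1a5 was the only one of the 33 genes in which K459 lay below every other line by 1 or more (3.03%, against 0.331%).

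**Figure D3:**
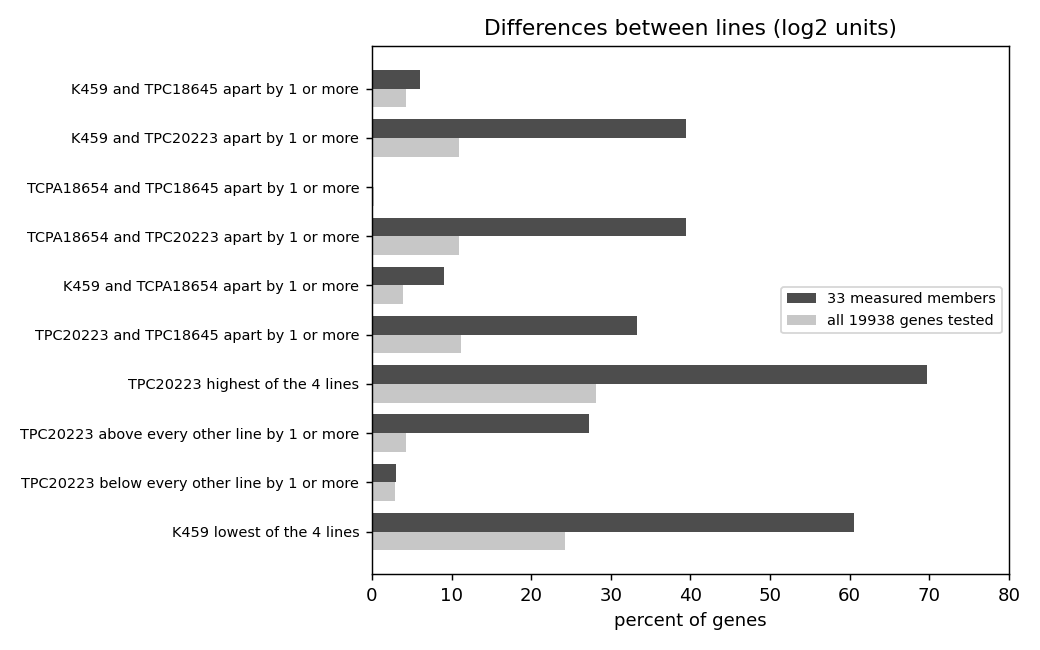
Percent of genes (horizontal axis) for which the stated difference between lines was found, among the 33 measured genes (dark bars) and among all 19938 genes tested (light bars). The share with TPC20223 highest was 69.7% against 28.1%, and the share with K459 lowest was 60.6% against 24.2%.

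The 3 enzymes of serine synthesis had their highest signal in TPC20223, by a small margin, as did 28.1% of all genes by any margin. Phgdh, which oxidizes 3-phosphoglycerate in the first step, had signals of 10.11 in K459 and 10.31 in TCPA18654, against 10.04 in TPC18645 and 10.67 in TPC20223. Psat1, the aminotransferase of the second step, had 11.13 and 11.54 in the same TPAC lines, against 11.37 and 11.94 in the TPC lines. Psph, the phosphatase that releases serine, had 8.34 in K459 and 8.96 in TCPA18654, against 8.84 in TPC18645 and 9.16 in TPC20223. In all 3 genes TCPA18654 lay between the TPC lines, so the groups overlapped. The median log2 difference of this group, TPAC minus TPC, was -0.32, and the margin of TPC20223 over the next line was 0.36 in Phgdh, 0.40 in Psat1 and 0.20 in Psph.

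Among the glycine and folate enzymes, Mthfd2 alone was 1 or more above every other line in TPC20223. Mthfd2, the mitochondrial methylenetetrahydrofolate dehydrogenase that is high in embryos and tumors, had signals of 9.86 in K459 and 10.57 in TCPA18654, against 10.24 in TPC18645 and 11.97 in TPC20223. Its signal in TPC20223 was 3.32-fold that of TPC18645. The means were 10.21 ± 0.50 in TPAC and 11.11 ± 1.22 in TPC cells (SD, n = 2 each), with a log2 difference of -0.89 ± 0.69 (SE; limma, adjusted p = 0.989). Mthfd2l, its isozyme in the same compartment, was instead lowest in TPC20223, with 9.53 in K459 and 9.39 in TCPA18654, against 9.51 in TPC18645 and 9.04 in TPC20223. Shmt2, the mitochondrial enzyme that splits serine to glycine, had 10.90 in K459 and 11.08 in TCPA18654, against 11.10 in TPC18645 and 11.30 in TPC20223. The groups did not overlap, but the gap between TCPA18654 and TPC18645 was 0.02. Mthfd1l, which releases formate from mitochondria, varied by 0.37 over the 4 lines.

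The remaining glycine and folate enzymes followed no common order. Mthfd1, the trifunctional cytosolic enzyme, was highest in K459, with 10.28, and had 9.67 in TCPA18654, against 9.64 in TPC18645 and 9.97 in TPC20223. Shmt1, the cytosolic serine hydroxymethyltransferase, had 9.09 in K459 and 8.70 in TCPA18654, against 8.66 in TPC18645 and 9.16 in TPC20223, so each genotype held 1 higher and 1 lower line. Gldc, the decarboxylase of the glycine cleavage system, was low in K459 (7.41) and high in TCPA18654 (8.42), and high in TPC18645 (8.53) and low in TPC20223 (6.86). The log2 difference between the genotypes was thus 0.22 ± 0.72 for Gldc, whereas TPC20223 minus TPC18645 was -1.67 and K459 minus TCPA18654 was -1.01. Gcat, which makes glycine from a product of threonine, varied by 0.17. In this group of 8 genes, 4 were higher and 4 lower in TPAC cells, with a median of 0.037.

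Of the methionine and transsulfuration genes, Mtr and Cth were among those highest in TPC20223 by 1 or more. Mtr encodes methionine synthase, which joins the folate and methionine cycles, and had signals of 8.49 in K459 and 8.27 in TCPA18654, against 8.35 in TPC18645 and 9.55 in TPC20223. The 3 other lines of Mtr lay within 0.22 of each other. Cth, which releases cysteine from cystathionine, had 7.84 in K459 and 8.92 in TCPA18654, against 8.20 in TPC18645 and 10.07 in TPC20223. Its range of 2.23 was the widest of the 33 genes, with a signal in K459 that was 4.69-fold below that of TPC20223, and in TPC20223 a signal 3.66-fold above that of TPC18645. Cbs, which makes the cystathionine, varied by 0.30 and was lowest in TPC20223. The median difference of these 3 genes was -0.57.

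The signals for asparagine and glutamine synthetase were at opposite ends in TPC20223. Asns, the asparagine synthetase and a classical ATF4 target whose promoter is printed above, had signals of 11.83 in K459 and 12.16 in TCPA18654, against 11.95 in TPC18645 and 13.46 in TPC20223. That is a 2.85-fold higher signal in TPC20223 than in TPC18645. Glul, the glutamine synthetase, had 12.15 in K459 and 12.11 in TCPA18654, against 12.24 in TPC18645 and 10.31 in TPC20223. The 3 other lines of Glul lay within 0.13 of each other, and the signal in TPC20223 was 3.81-fold lower than in TPC18645. The other probe set of Glul had 12.03 in K459 and 12.03 in TCPA18654, against 11.93 in TPC18645 and 10.29 in TPC20223, the same order of TPC20223 against the rest. Both TPAC lines were above TPC18645 in that probe set and below it in the one used. The sign of the Glul difference without TPC20223 thus depends on the probe set. The log2 difference of Glul, TPAC minus TPC, was 0.86 ± 0.72 with 4 lines and -0.11 without TPC20223, and that of Asns was -0.71 ± 0.58 with 4 lines and 0.05 without TPC20223.

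Got1, the cytosolic aspartate aminotransferase, had signals of 11.46 in K459 and 11.95 in TCPA18654, against 11.96 in TPC18645 and 11.18 in TPC20223. Each genotype thus held a higher and a lower line, and the close pair TCPA18654 and TPC18645 was on top. Aldh18a1, which starts proline synthesis from glutamate, had 10.95 in K459 and 10.99 in TCPA18654, against 11.03 in TPC18645 and 11.77 in TPC20223. The TPAC lines lay below the TPC lines, by 0.04 in the closest case. Over the 4 measured genes of this group 2 were higher and 2 lower in TPAC cells, with a median of -0.147.

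Most transporters had the same ends as Asns. K459 was lowest in 8 of 10 (80%, against 24.2% of all genes), and TPC20223 was highest in 7 of 10 (70%, against 28.1%). Slc6a9, the glycine transporter GlyT1, had signals of 10.36 in K459 and 10.80 in TCPA18654, against 10.81 in TPC18645 and 12.13 in TPC20223. The TPAC lines lay below the TPC lines, with 0.01 between TCPA18654 and TPC18645, and the log2 difference was -0.89 ± 0.52 (limma, adjusted p = 0.989). Slc1a4, the exchanger ASCT1 for serine and other small neutral amino acids, had 9.33 in K459 and 9.71 in TCPA18654, against 9.81 in TPC18645 and 10.84 in TPC20223. Slc7a5, the LAT1 transporter of large neutral amino acids, had 11.10 in K459 and 11.62 in TCPA18654, against 11.46 in TPC18645 and 12.64 in TPC20223. In these 3 genes the margin of TPC20223 over the next line was 1.32 for Slc6a9, 1.03 for Slc1a4 and 1.02 for Slc7a5.

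Slc3a2, the heavy chain that carries Slc7a5 and Slc7a11 to the membrane, varied less, with 12.62 in K459 and 12.85 in TCPA18654, against 12.79 in TPC18645 and 13.06 in TPC20223. Slc7a11, the light chain of the cystine and glutamate exchanger, was highest in TCPA18654. It had 11.13 in K459 and 11.93 in TCPA18654, against 11.43 in TPC18645 and 10.95 in TPC20223, the lowest line by 0.18. Slc1a5, the glutamine exchanger ASCT2, had 8.20 in K459 and 9.48 in TCPA18654, against 9.34 in TPC18645 and 9.90 in TPC20223. Here K459 was the line that stood apart, 2.43-fold below TCPA18654 of the same genotype. The log2 difference of Slc1a5 was -0.78 ± 0.53, and its SD between lines was 0.90 in TPAC and 0.40 in TPC cells (n = 2 each).

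The cationic amino acid transporters Slc7a1 and Slc7a3 differed in order. Slc7a1, the widely expressed member, had signals of 9.94 in K459 and 10.63 in TCPA18654, against 10.45 in TPC18645 and 10.86 in TPC20223. Slc7a3 had 7.27 in K459 and 8.18 in TCPA18654, against 7.25 in TPC18645 and 6.63 in TPC20223. Both TPAC lines of Slc7a3 lay above the TPC lines, but K459 did so by only 0.02, and the log2 difference was 0.79 ± 0.42. Slc38a2, a sodium-coupled transporter of neutral amino acids, varied by 0.55 with TPC20223 highest, and its relative Slc38a1 varied by 0.33 with TCPA18654 highest. The second probe set of Slc38a1 ranged over 8.80 in K459 and 8.92 in TCPA18654, against 8.82 in TPC18645 and 8.94 in TPC20223. For the 10 transporters 3 were higher and 7 lower in TPAC cells, with a median of -0.297.

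All 5 genes of ATF4 and its partners and targets had a lower mean in TPAC cells and their highest signal in TPC20223, and none passed the test. Of all genes, 46.7% had a lower mean in TPAC cells and 28.1% were highest in TPC20223. Atf4 itself had signals of 9.15 in K459 and 9.17 in TCPA18654, against 9.06 in TPC18645 and 9.68 in TPC20223. The margin of TPC20223 over the next line was 0.51 for Atf4, against 1.58 for Chac1 and 1.18 for Trib3. ATF4 is known to be regulated largely by translation, which was not measured here. Chac1, an enzyme that breaks down glutathione, had 9.07 in K459 and 9.56 in TCPA18654, against 9.51 in TPC18645 and 11.14 in TPC20223. Its means were 9.32 ± 0.35 in TPAC and 10.32 ± 1.15 in TPC cells (SD, n = 2 each), and its log2 difference of -1.01 ± 0.63 was the widest of the 33 genes (limma, adjusted p = 0.989). Trib3, a pseudokinase that dampens ATF4, had 8.0 in K459 and 8.26 in TCPA18654, against 8.11 in TPC18645 and 9.44 in TPC20223. The promoters of Chac1 and Trib3 hold the composite site, as do those of Asns and Slc1a4, which share the high signal in TPC20223. So do those of Slc7a11 and Got1, which were lowest in that line. Of the other genes that exceeded every line by 1 or more in TPC20223, Mthfd2, Mtr and Slc6a9 had windows without the site. Cth and Slc7a5 had no window to search. A link between the site and these signals was not tested.

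Atf5, a related factor that is also induced through eIF2α, had signals of 7.92 in K459 and 8.30 in TCPA18654, against 8.46 in TPC18645 and 9.34 in TPC20223. Its TPAC and TPC lines did not overlap, and its unadjusted p of 0.105 was the smallest of the 33 genes (limma, adjusted p = 0.989). Ddit3, the C/EBP-family factor CHOP, had 8.26 in K459 and 8.78 in TCPA18654, against 8.71 in TPC18645 and 9.40 in TPC20223. The median difference of these 5 genes was -0.645 for TPAC minus TPC and 0.88 for TPC20223 minus TPC18645.

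**Figure D4:**
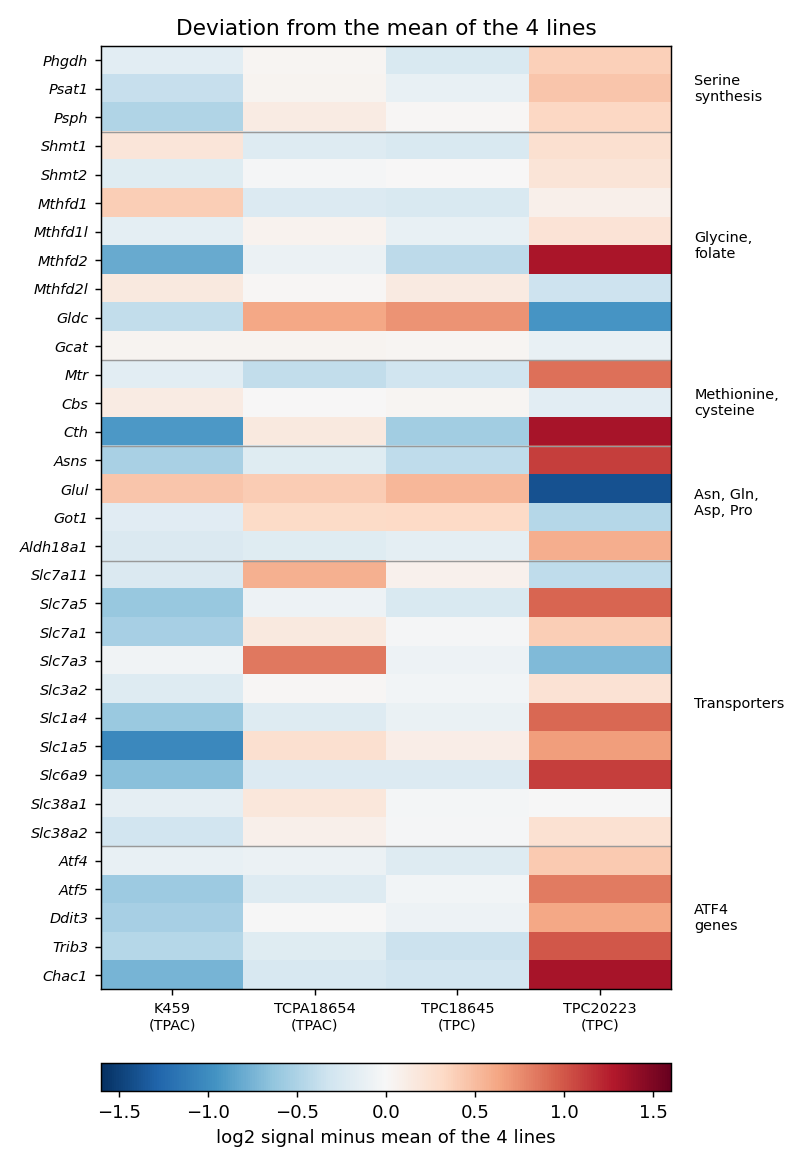
Log2 signal of each of the 33 genes minus its mean over the 4 lines (colour scale, red above and blue below the mean), by line and role. The TPC20223 column is red for most genes. It is blue for Glul, Gldc, Slc7a3, Got1, Slc7a11 and Mthfd2l, and faintly so for Cbs and Gcat. The K459 column is mostly blue, and the columns of TCPA18654 and TPC18645 are mostly pale.

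The other genes of these pathways gave a mixed picture, and none of them was called (smallest adjusted p of limma 0.989 in each list). The counts of higher and lower genes below stand beside 46.7% of all genes with a lower mean in TPAC cells. Of 18 measured aminoacyl-tRNA synthetases, which charge tRNAs and include known ATF4 targets, 4 were higher and 14 lower in TPAC cells, with a median of -0.067, and 11 were highest in TPC20223 (61.1%, beside the 28.1% of all genes given above). Those with the widest range were Yars, Tars, Gars and Iars. Tars, for example, had signals of 9.65 in K459 and 9.73 in TCPA18654, against 9.55 in TPC18645 and 10.78 in TPC20223. The signal in TPC20223 was 11.17 for Yars, 12.07 for Gars and 12.63 for Iars, above all the other lines in each case.

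Of 23 measured genes of the eIF2α kinases and the stress response, 11 were higher and 12 lower in TPAC cells, with a median of -0.005. TPC20223 was highest in 7 (30.4%), a share close to that of all genes, but K459 was lowest in 52.2%, against 24.2% of all genes. K459 was also lowest in 61.1% of the synthetases and 39.1% of the other folate, methionine and glycine genes. For the other transporters this share was 32%, and for the other enzymes 11.1%. Sesn2, a stress-induced inhibitor of mTORC1, had 7.50 in K459 and 7.86 in TCPA18654, against 7.91 in TPC18645 and 9.45 in TPC20223. Eif4ebp1, the repressor of cap-dependent translation and an ATF4 target, had 10.86 in K459 and 11.35 in TCPA18654, against 11.38 in TPC18645 and 11.91 in TPC20223. Both were lowest in K459 and highest in TPC20223, as Chac1 was. Stc2, a secreted stress-induced glycoprotein, was low in K459 alone (8.16, with the other lines at 9.12 to 9.59), and Eif2ak2, the RNA-activated kinase PKR, was lowest in TPC20223 (8.68) and highest in TPC18645 (9.88).

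Of 23 other folate, methionine and glycine genes, 11 were higher and 12 lower in TPAC cells, with a median of -0.01, and 8 were highest in TPC20223 (34.8%, against 28.1% of all genes). Aldh1l2, the mitochondrial formyltetrahydrofolate dehydrogenase, had 7.84 in K459 and 9.62 in TCPA18654, against 9.26 in TPC18645 and 10.76 in TPC20223. Aldh1l1, its cytosolic counterpart, had the reverse order at the ends, with 8.18 in K459 and 7.71 in TCPA18654, against 7.88 in TPC18645 and 6.76 in TPC20223. The mitochondrial enzyme was thus highest in TPC20223 and the cytosolic one lowest there, at a signal below the dim cut of 6.963. Ahcyl2, a relative of the S-adenosylhomocysteine hydrolase, was highest in K459 (11.58), and Srr, the serine racemase, was highest in TPC20223 (9.39).

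Of 25 other amino acid transporters, 9 were higher and 16 lower in TPAC cells, with a median of -0.195. In TPC20223 13 were highest (52%, against 28.1% of all genes), 5 of them by 1 or more (4.24% of all genes). Slc38a4, a system A transporter known from liver and placenta, had 6.56 in K459 and 6.36 in TCPA18654, against 6.41 in TPC18645 and 12.04 in TPC20223. Its range of 5.68 was the widest among the pathway genes named here, but in all lines except TPC20223 it lay below the dim cut of 6.963. Slc1a3, a glutamate transporter, had 6.39 in K459 and 6.82 in TCPA18654, against 6.82 in TPC18645 and 9.50 in TPC20223. It too was below that cut in all lines except TPC20223. Slc7a7, a light chain that exports cationic amino acids, had 9.59 in K459 and 9.54 in TCPA18654, against 9.79 in TPC18645 and 7.14 in TPC20223. Slc7a2, a cationic amino acid transporter, was lowest in K459 (8.19).

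Of 18 other enzymes of amino acid metabolism, 12 were higher and 6 lower in TPAC cells, with a median of 0.163, and 12 were lowest in TPC20223 (66.7%, against 38.8% of all genes). Bcat1, the cytosolic branched-chain aminotransferase, had 8.33 in K459 and 9.78 in TCPA18654, against 9.33 in TPC18645 and 11.79 in TPC20223. Gpt2, the mitochondrial alanine aminotransferase, was likewise highest in TPC20223 (10.41). Gclc, the catalytic subunit of the first step of glutathione synthesis, had 11.52 in K459 and 11.53 in TCPA18654, against 11.20 in TPC18645 and 9.86 in TPC20223. Glud1, the glutamate dehydrogenase, had 11.68 in K459 and 11.65 in TCPA18654, against 11.76 in TPC18645 and 10.62 in TPC20223, which was the lowest line as for Glul and Got1.

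**Figure D5:**
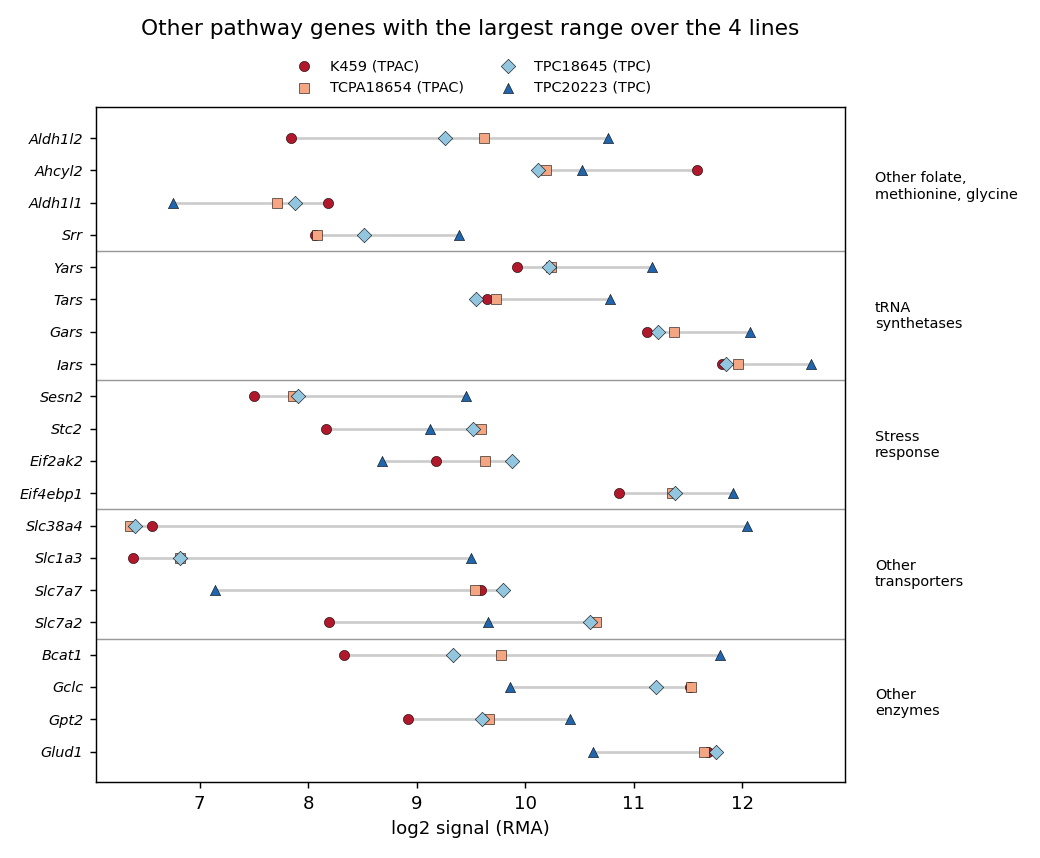
Log2 RMA signal (horizontal axis) in the 4 lines, 1 array each, of the 4 genes with the widest range in each of 5 further lists of pathway genes, with colours and shapes of the lines given in the legend. Slc38a4 lies between 6.36 and 6.56 in both TPAC lines and TPC18645 and at 12.04 in TPC20223, while Slc7a7, Gclc and Glud1 are lowest in TPC20223.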

How the data were processed

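Total RNA of 4 cell lines from mouse pancreatic tumors was hybridised to 1 array per line. The deposited values are log2 signals, which the authors computed by RMA (Affymetrix Expression Console 1.4, according to the submitters' processing notes). RMA sets all arrays to nearly the same distribution, and the array medians were 7.19 to 7.26. The values carry no detection call. Array batches are not given in the sources used here. Precision is limited by the number of arrays. Of the 28941 probe sets (transcript clusters), 21789 carried 1 gene symbol, 1621 carried several and 5531 were unnamed here. Of those with 1 symbol, 21698 were found by Entrez number in RefSeq's genes of GRCm38.p6, and 0 symbols changed. The brightest probe set stood for each gene, with no filter on low signal. TPAC cells were compared with TPC cells in limma 3.58.1 under R 4.3.3 (lmFit and eBayes, two-sided, p-values adjusted by Benjamini-Hochberg over the 19938 genes). A call needed an adjusted p of at most 0.05 and a log2 difference of at least 0.58. The steps were tested on simulated data with the spread between TCPA18654 and TPC18645, the closest pair. Lines of the same genotype were further apart, so the simulation does not show which differences could be detected here.

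Single lines were compared by their differences without a test. All 36 genes are named, and from each further list the 4 genes of widest range. The genes and lists were chosen with earlier results of these data known. Alternative settings were cyclic loess, arrays set to a common median, probe sets averaged per gene, an intensity trend in eBayes, a filter at the 40th percentile of mean signal, the methods' t-test, other thresholds and each line left out in turn, in which case limma takes the lone line of a group to vary like the other group. The scaling, probe set and filter alternatives for the counts of a line that is highest or lowest were added after the data were seen. Arrays of KPC and KC cells were not analysed here.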

Additional observations from a re-analysis of the deposited data

How the results depend on the processing

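With 2 lines per genotype, 1 line can set a difference. The count of genes called was 0 in all alternatives except at an unadjusted p, which called 84, none of them among the 33. Of 297 alternative values for the log2 differences of the 33 genes, 277 kept their direction and 20 reversed. Many of these values could not reverse. The intensity trend, the filter and the common median left every difference unchanged, and averaging probe sets could change only Glul and Slc38a1. The reversals came from leaving out 1 line, except for 1 under cyclic loess. Of 90 alternative counts, 85 stayed within 1.5 times the reported count. The only sign turned by scaling was that of Slc38a1, -0.009 under cyclic loess. Set to a common median, 0 of the 33 genes had both TPAC lines above both TPC lines. With a log2 difference of 0.58 in place of 1, K459 and TPC18645 were apart in 3 of the 33 genes (9.09%, against 10.9% of all genes), K459 and TPC20223 in 18 (54.5%, 22.3%), TCPA18654 and TPC18645 in 2 (6.06%, 1.68%), TCPA18654 and TPC20223 in 17 (51.5%, 21.8%), K459 and TCPA18654 in 9 (27.3%, 10.0%), and TPC20223 and TPC18645 in 18 (54.5%, 22.4%).

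Leaving out 1 line turned the sign of 15 genes, 12 of them without TPC20223. The log2 difference, TPAC minus TPC, then ranged as follows: Phgdh -0.46 to 0.17, Shmt1 -0.265 to 0.235, Mthfd1 -0.135 to 0.475, Mthfd1l -0.265 to 0.065, Mthfd2l -0.05 to 0.42, Gldc -0.615 to 1.055, Mtr -1.17 to 0.03, Cth -1.69 to 0.18, Asns -1.465 to 0.045, Glul -0.11 to 1.82, Got1 -0.255 to 0.525, Slc7a11 -0.06 to 0.74, Slc38a1 -0.13 to 0.20, Atf4 -0.52 to 0.10 and Trib3 -1.31 to 0.02. Without TPC18645 11 of the 33 genes passed an unadjusted p and a log2 difference of 0.58 (33.3%, against 14.3% of all genes), with a smallest adjusted p of 0.102 (limma), and without TCPA18654 1 did (3.03%, against 1.98%). No paired analysis was possible because the labels give no replicate numbers shared by the genotypes.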
